A study of Mus musculus with 6 samples.

Results

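Thbs1, Vegfa, Hbegf, Areg, Tgfb1, Cd36 and Cd47 are 7 of the 54838 genes counted in neutrophils sorted from infected mouse corneas, and they form a set of angiogenic, antiangiogenic and wound repair factors with receptors for thrombospondin. The set was named by hand, and its symbols were matched to Ensembl identifiers through GENCODE M21. Thbs1 was chosen by its level in these same libraries, where its transcript ranks among the most abundant, so that level is a description with no test. The other genes were named for their role, and the rule uses no difference between genotypes. The samples were neutrophils isolated by flow cytometry from corneas of Il1a knockout mice (Il1a -/-, 3 libraries) or of wild-type mice (WT, 3 libraries), and all corneas had been infected with PAO1, a laboratory strain of Pseudomonas aeruginosa, 24 h earlier. Il1a encodes the cytokine IL-1 alpha. The labels call the libraries biological replicates but do not give the strain background, age or sex of the mice, how the Il1a allele was made or how many animals went into a library. No uninfected or blood neutrophils are among the samples, and the levels below therefore describe infected tissue only.

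Thrombospondin 1, the protein of Thbs1, is a large matrix glycoprotein that blocks the growth of blood vessels through the receptor CD36, signals through CD47 and can release TGF-beta 1 from its latent form. VEGF-A, the protein of Vegfa, is the main growth factor for vascular endothelium and drives vessel ingrowth into the normally avascular cornea. Heparin-binding EGF (Hbegf) and amphiregulin (Areg) are membrane-anchored ligands of the EGF receptor that are cut from the cell surface by ADAM proteases and act on the migrating corneal epithelium, while TGF-beta 1 (Tgfb1) acts on stromal keratocytes during scarring.

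The libraries held between 22855676 and 33626008 gene counts. The Il1a level followed the labels, with 92, 174 and 118 counts in the knockout libraries, against 136694, 192428 and 272865 in the wild-type libraries. In a principal component analysis of log2 CPM the first axis (32.1% of the variance) placed knockout replicate 2 at 67.3 and the remaining 5 libraries between -32.9 and 2.1. CPM are counts per 1000000, on a library size adjusted by the TMM method. TPM are counts divided by merged exon length and scaled to sum to 1000000 in each library, and they are the scale used to compare genes with each other. Of the 10 listed neutrophil markers, 8 averaged 5 CPM or more, and their levels differed widely. Ly6g had 11.8 to 14.6 CPM in the knockout libraries and 9.91 to 15.9 CPM in the wild-type libraries. Mmp8 had 232, 97.3 and 86.9 CPM in knockout replicates 1, 2 and 3, against 179, 180 and 182 CPM in wild type. Of the 8 tested, 6 had a log2 fold change, knockout over wild type, below zero and 2 above. The 2 S100 genes were the most abundant. S100a9 had 12571 to 14298 CPM in the knockout libraries and 12946 to 15660 CPM in the wild-type libraries, and S100a8 had 9113 to 10112 and 9520 to 11540 CPM in the same order, while Elane and Mpo, granule genes of neutrophil precursors, reached at most 2.86 CPM in any of the 6.

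The 7 genes differed in level by more than 4 orders of magnitude on the length-scaled axis, and their order was the same in all 6 libraries. Thbs1 stood first at 10703 ± 613 TPM in the knockout and 11524 ± 2648 TPM in wild type (SD, n = 3 each). Cd47 followed at 451 ± 9 and 475 ± 48 TPM, Tgfb1 at 193 ± 32 and 198 ± 14 TPM, and Vegfa at 92.0 ± 21.8 and 94.98 ± 8.05 TPM. Hbegf, at 7.55 ± 1.91 and 6.84 ± 0.34 TPM, Areg, at 4.93 ± 2.08 and 3.39 ± 1.85 TPM, and Cd36, at 0.731 ± 0.457 and 0.310 ± 0.151 TPM, were far lower. By the median over libraries the widest step was between Thbs1 and Cd47, with a ratio of TPM of 20.1 to 27.8 within a library, and the next was between Vegfa and Hbegf, at 10.1 to 15.0. The narrowest steps were Tgfb1 over Vegfa, at 1.64 to 3.13, and Hbegf over Areg, at 1.16 to 3.13. The TPM values of Hbegf and Areg overlapped between libraries, although Hbegf was the higher in each.

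**Figure D1:**
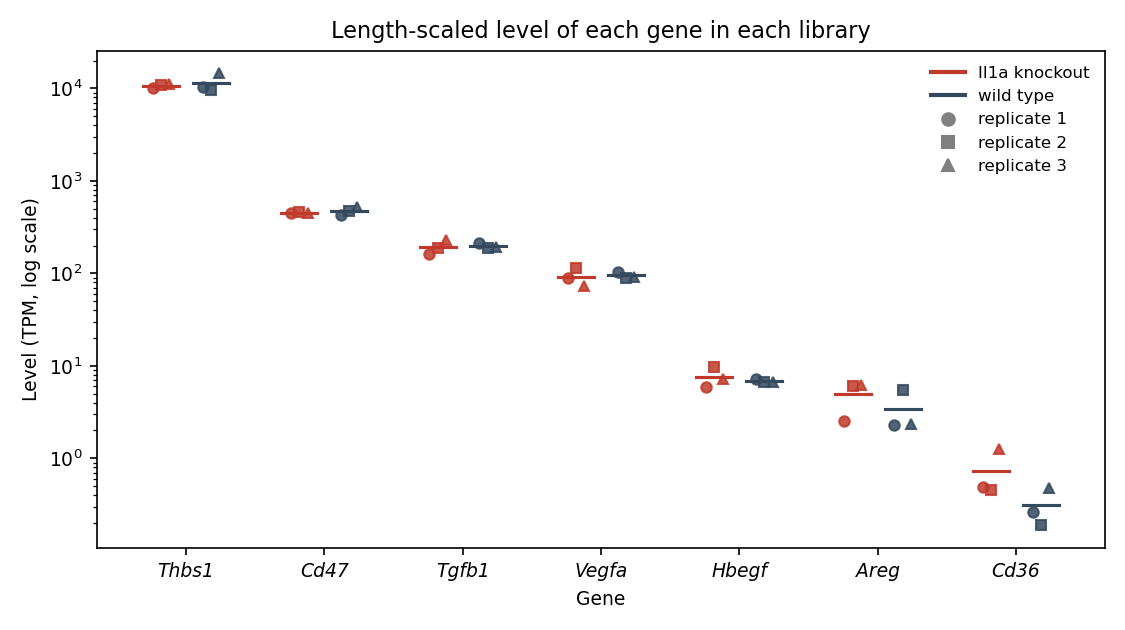
Each point is the level of a gene in 1 library, in TPM on a log axis, with Il1a knockout in red on the left and wild type in dark blue on the right of each gene, and a bar marks the mean of 3 libraries. Thbs1 lies between 9608 and 14546 TPM in all 6 libraries, and Cd36 lies between 0.189 and 1.26 TPM.

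Thbs1 (ENSMUSG00000040152, GRCm38 chromosome 2, 118111876 to 118127133, plus strand) was counted 735116, 855188 and 635785 times in the knockout libraries, against 675508, 773934 and 1180058 times in the wild-type libraries. It made up 2.62% ± 0.18 of all gene counts in the knockout and 2.86% ± 0.57 in wild type (SD, n = 3 each). By CPM it ranked 3 among all genes, after Fth1, a ferritin gene, and Cd14, a receptor for bacterial lipopolysaccharide. By TPM, which takes its 6073 bases of merged exons into account, it ranked 13. Its CPM was 23108, 26369 and 27767 in knockout replicates 1, 2 and 3, against 25281, 24916 and 37952 in wild-type replicates 1, 2 and 3. Wild-type replicate 3 was the highest library, and the other 5 lay within a narrow band in which the genotypes overlapped. The log2 fold change, knockout over wild type, was -0.19 with a 95% interval from -0.56 to 0.17 (SE 0.16, edgeR quasi-likelihood test, adjusted p = 0.94), which corresponds to a fold of 0.876 with an interval from 0.680 to 1.13. Without wild-type replicate 3 the log2 fold change was 0.035, so the sign of the difference rests on that library.

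Thbs1 lies 11.2 Mb from Il1a on the same chromosome. Of the 15 other tested genes within 1 Mb of Thbs1, 0 passed edgeR's quasi-likelihood test, and their median log2 fold change was -0.17. Over all 11924 tested genes 12 passed (0.101%), so a count of 0 among so few genes says little about them. The same share stands beside the counts of passing genes for each pathway and marker list below. The nearest gene that passed was Ehd4, an endosomal trafficking gene 1.96 Mb away, at 22.3 CPM in the knockout and 6.91 CPM in wild type. The exons of Thbs1 share 208 bases with Gm29233, an antisense transcript with 14, 18 and 17 counts in the knockout libraries and 13, 14 and 5 in the wild-type libraries. The sum of the strand columns gave Thbs1 between 108% and 109% of its unstranded count in every library of both genotypes. No transcript of another gene matched a transcript of any of the 7 genes at 90% identity over 50% of its length. Among the other thrombospondins, Thbs4, a matrix protein gene of muscle and tendon, was at 10.9 ± 2.2 CPM in the knockout and 14.2 ± 4.0 CPM in wild type (SD, n = 3 each), and Thbs2 and Thbs3 had at most 1.20 CPM in any library. Of the 5 listed family members 4 were tested and 0 passed.

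The receptors of thrombospondin 1 were unequal in TPM. Cd47 (ENSMUSG00000055447, chromosome 16, 49800533 to 49915010, plus strand), which encodes a surface protein that also restrains phagocytosis through SIRP-alpha, had 1061, 1165 and 1136 CPM in the knockout libraries, against 1069, 1278 and 1410 CPM in the wild-type libraries. The lowest wild-type library lay among the knockout libraries and the other wild-type libraries lay above them. Its log2 fold change was -0.16 with a 95% interval from -0.43 to 0.11 (SE 0.12, edgeR adjusted p = 0.94). Sirpa, the gene of the counter-receptor, was at 212 ± 30 CPM in the knockout and 212 ± 32 CPM in wild type (SD, n = 3 each).

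Cd36 (ENSMUSG00000002944, chromosome 5, 17781690 to 17888801, minus strand), a scavenger receptor gene of macrophages, platelets and microvascular endothelium, had 21, 21 and 42 counts in the knockout libraries, against 10, 9 and 23 counts in the wild-type libraries. That is 0.660, 0.648 and 1.83 CPM in the knockout and 0.374, 0.290 and 0.740 CPM in wild type. The highest wild-type library lay above 2 of the knockout libraries, so the groups overlapped. Its log2 fold change of 1.14 had a 95% interval from -0.30 to 2.58 (SE 0.65, edgeR adjusted p = 0.90), wide enough to hold both no difference and a difference beyond 4-fold, and it was 0.48 without knockout replicate 3. In bulk samples fewer cells of a type and less RNA per cell cannot be told apart. Of 20 listed receptors and partners of thrombospondin, 17 were tested and 0 passed. Among the abundant members, Mmp9, the gelatinase gene of neutrophils, was at 1035 ± 332 CPM in the knockout and 1130 ± 292 CPM in wild type, Calr, the calreticulin gene, at 207 ± 12 and 272 ± 44 CPM (edgeR adjusted p = 0.70) and the integrin gene Itgb1 at 190 ± 18 and 151 ± 11 CPM (SD, n = 3 each, edgeR adjusted p = 0.75).

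Vegfa (ENSMUSG00000023951, chromosome 17, 46016993 to 46032369, minus strand) had 143, 199 and 126 CPM in the knockout libraries, against 178, 164 and 168 CPM in the wild-type libraries. The knockout libraries held both the highest and the lowest value, and the wild-type libraries lay between them. The log2 fold change was -0.12 with a 95% interval from -0.49 to 0.24 (SE 0.16, edgeR adjusted p = 0.97), and its sign was reversed, at 0.0053, without knockout replicate 3. Of 10 listed ligands and receptors of the VEGF family 7 were tested, 0 passed, and 1, Vegfa itself, averaged 5 CPM or more. Flt1, a receptor gene also found in monocytes, was at 3.95 ± 1.87 CPM in the knockout and 3.50 ± 0.60 CPM in wild type, and the coreceptor gene Nrp2 at 2.00 ± 0.97 and 1.26 ± 0.44 CPM (SD, n = 3 each).

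The genes that tie Vegfa to oxygen were measured as well. Hif1a, the oxygen-sensitive transcription factor gene, was at 322 ± 15 CPM in the knockout and 317 ± 36 CPM in wild type (SD, n = 3 each), Slc2a1, the glucose transporter gene, at 652 ± 107 and 633 ± 24 CPM, and Pfkfb3, a regulator of glycolysis, at 2169 ± 164 and 2343 ± 489 CPM. Egln3, which encodes a prolyl hydroxylase that marks the HIF protein for degradation, was at 193 ± 30 and 215 ± 11 CPM. Of 18 genes on that list 17 were tested and 0 passed, with a median log2 fold change of 0.0044.

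Among the EGF receptor ligands, Hbegf (ENSMUSG00000024486, chromosome 18, 36504927 to 36515805, minus strand) had 10.8, 18.7 and 14.1 CPM in the knockout libraries, against 14.0, 13.8 and 13.7 CPM in the wild-type libraries. The wild-type libraries were almost equal, and the knockout libraries spread to both sides of them. The log2 fold change was 0.07 with a 95% interval from -0.40 to 0.54 (SE 0.21, edgeR adjusted p = 0.99), and it was -0.17 without knockout replicate 2. Areg (ENSMUSG00000029378, chromosome 5, 91139599 to 91148432, plus strand) had 37, 96 and 70 counts in the knockout libraries, against 30, 89 and 38 counts in the wild-type libraries. In CPM these are 1.16, 2.96 and 3.06 in the knockout and 1.12, 2.87 and 1.22 in wild type. Areg was near 3 CPM in knockout replicates 2 and 3 and wild-type replicate 2 and near 1 CPM in the other libraries, so the split did not follow genotype. Its log2 fold change was 0.46 with a 95% interval from -0.65 to 1.56 (SE 0.50, edgeR adjusted p = 0.96). Without wild-type replicate 2 it was 1.02, and without wild-type replicate 1 it was 0.21.

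Of the 11 listed EGF family ligands, 5 were tested, 0 passed, and Hbegf was the 1 that averaged 5 CPM or more. Ereg, the epiregulin gene, was at 3.22 ± 2.60 CPM in the knockout and 2.71 ± 1.38 CPM in wild type, and Nrg1, a neuregulin gene, at 2.77 ± 1.05 and 1.95 ± 0.49 CPM (SD, n = 3 each). The proteases and partners that release these ligands spanned a wide range of CPM. Adam17, the main sheddase of the family, was at 148 ± 16 CPM in the knockout and 133 ± 5 CPM in wild type, and Rhbdf2, whose product iRhom2 carries ADAM17 to the surface of myeloid cells, at 457 ± 61 and 434 ± 40 CPM. Adam8, a metalloprotease gene of granulocytes, was at 1822 ± 119 and 1876 ± 46 CPM, and Cd9, a tetraspanin gene whose product binds the membrane form of HB-EGF, at 2368 ± 115 and 2416 ± 323 CPM (SD, n = 3 each). Cd44, whose product holds HB-EGF and its proteases at the cell surface, was at 1688 ± 244 and 1518 ± 48 CPM. The proteases Adam10 and Adam9 were lower, at 33.6 ± 7.3 and 17.3 ± 1.2 CPM in the knockout and 32.5 ± 2.6 and 22.6 ± 2.6 CPM in wild type, and Rhbdf1 was at 1.11 ± 0.65 and 1.25 ± 1.04 CPM. Of 15 receptor and shedding genes, 8 averaged 5 CPM or more, 12 were tested and 0 passed.

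Tgfb1 (ENSMUSG00000002603, chromosome 7, 25687002 to 25705077, plus strand) had 310, 383 and 464 CPM in the knockout libraries, against 432, 407 and 414 CPM in the wild-type libraries. As with Vegfa and Hbegf, the wild-type libraries lay inside the range of the knockout libraries. The log2 fold change was -0.11 with a 95% interval from -0.44 to 0.21 (SE 0.14, edgeR adjusted p = 0.97), and it was 0.015 without knockout replicate 1. Furin, the protease gene whose product cleaves the TGF-beta 1 precursor, was at 1210 ± 134 CPM in the knockout and 1260 ± 227 CPM in wild type, and Nrros, which encodes a myeloid protein that anchors latent TGF-beta 1, at 76.0 ± 11.1 and 82.9 ± 17.0 CPM (SD, n = 3 each). The integrin gene Itgav, whose product activates the latent form together with a beta chain, was at 102 ± 6 and 117 ± 33 CPM. The beta chain genes on the list of TGF-beta ligands, latency and activation genes, Itgb6 and Itgb8, were near the floor. Itgb6 was at 1.44 ± 1.77 CPM in the knockout and 1.38 ± 0.83 CPM in wild type. Itgb8 was at 1.17 ± 0.61 and 0.36 ± 0.38 CPM in the same order. Beta chain genes on the list of thrombospondin receptors and partners were higher. Itgb1 was at 190 ± 18 CPM in the knockout and 151 ± 11 CPM in wild type. Itgb3 had 7.58 to 17.5 CPM in the knockout libraries and 11.4 to 13.3 CPM in the wild-type libraries. Of 17 listed ligands, latency and activation genes, 13 were tested and 0 passed. Among 20 receptors, SMAD genes and targets, 19 were tested and 0 passed, with the SMAD repressor genes Skil at 1062 ± 80 and 1030 ± 171 CPM and Tgif1 at 876 ± 37 and 899 ± 124 CPM the most abundant.

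Promoter sequence was available in the RefSeq table (GRCm38.p6) for 5 of the 7 genes. The 110 bases before the start of Vegfa, Tgfb1 and Areg are shown because they set secreted factors of different level side by side, with matches to GGGCGG (the GC box), TATAAA (the TATA box) and TGACGTCA (the cyclic AMP response element) on either strand in capitals. They read 5′ to 3′ on the strand of the gene and come from chr17:46032378-46032487 (minus strand), chr7:25686892-25687001 (plus strand) and chr5:91139489-91139598 (plus strand).
Vegfa: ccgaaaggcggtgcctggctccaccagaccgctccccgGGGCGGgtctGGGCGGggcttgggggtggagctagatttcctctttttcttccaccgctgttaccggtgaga
Tgfb1: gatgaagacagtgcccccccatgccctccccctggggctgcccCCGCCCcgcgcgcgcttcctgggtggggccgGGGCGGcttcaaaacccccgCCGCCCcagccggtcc
Areg: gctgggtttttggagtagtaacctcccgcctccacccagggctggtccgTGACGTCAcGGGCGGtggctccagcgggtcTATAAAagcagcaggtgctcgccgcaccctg
In the 250 bases before the start, Vegfa held 2 GC boxes, Tgfb1 held 5 and Areg held 1, and only Areg of these 3 genes held a TATA box, starting 31 bases upstream, and a cyclic AMP response element, starting 61 bases upstream. Of 32851 promoter windows of that length, 32.7% held a GC box, 12.4% a TATA box and 1.55% a cyclic AMP response element. Binding was not measured here, and a match is a description of the letters.

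Across the set, 0 of the 7 genes passed edgeR's quasi-likelihood test at an adjusted p under 0.05, in a comparison where 12 of 11924 tested genes passed (0.101%). None was called higher, beside 0.0755% of tested genes, and none lower, beside 0.0252%. At an unadjusted p under 0.05 there were 0 of 7, against 5.99% of all tested genes, and 0 of 7 were called by DESeq2, which called 0.53% of the genes it tested, or by limma-voom, which called 0.101%. Knockout and wild-type libraries were separated without overlap for 0 of the 7 genes and for 11.6% of tested genes. Of the 7 log2 fold changes, 4 were below zero (Thbs1, Cd47, Vegfa and Tgfb1) and 3 above (Hbegf, Areg and Cd36), with a median of -0.11 beside 0.0045 over all tested genes. The 95% intervals of the 4 abundant genes lay within a fold of 0.680 to 1.18, while that of Areg ran from 0.639 to 2.94 and that of Cd36 from 0.811 to 5.99. A missed threshold does not show that the genotypes are alike, and for Areg and Cd36 a difference of 2-fold lies inside the interval.

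**Figure D2:**
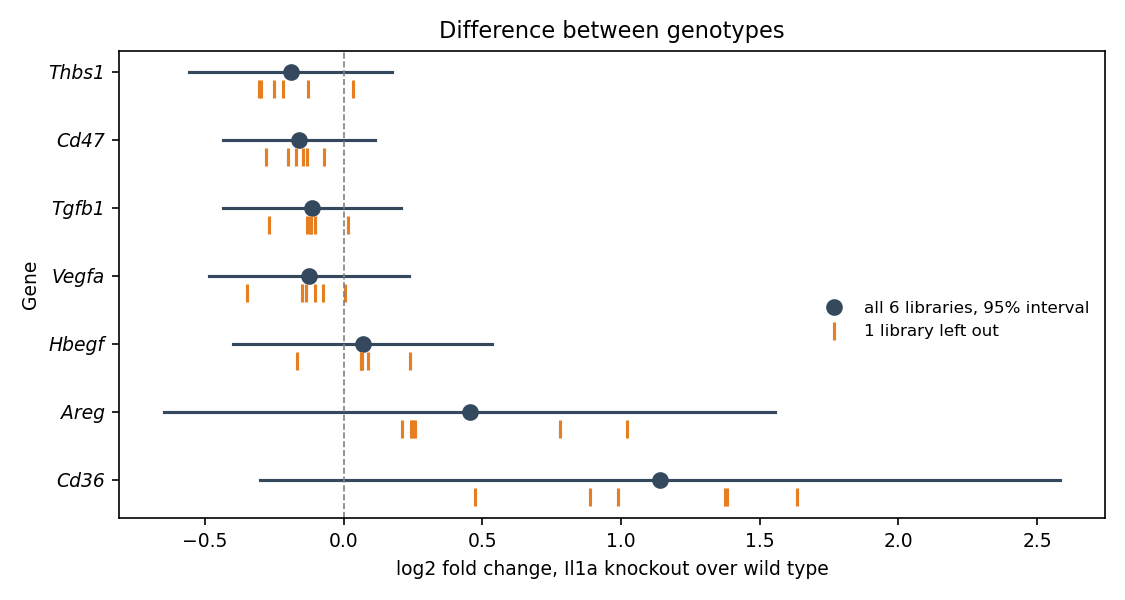
Dots give the log2 fold change of each gene, Il1a knockout over wild type, with its 95% interval as a line, and orange ticks give the value in each of 6 fits with 1 library left out. All 7 intervals include 0, and the ticks of Thbs1, Tgfb1, Vegfa and Hbegf lie on both sides of it.

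The balance of Thbs1 to Vegfa, an antiangiogenic against an angiogenic transcript, does not depend on library scaling. The TPM of Thbs1 was 114, 93.6 and 155 times that of Vegfa in the knockout libraries, against 99.9, 107 and 160 times in the wild-type libraries. Replicate 3 was the highest of each genotype and the groups overlapped throughout. The mean log2 ratio was 6.89 ± 0.37 in the knockout and 6.90 ± 0.37 in wild type (SD, n = 3 each), a difference of -0.015 (exact two-sided permutation test, p = 0.90, where the smallest p for 3 against 3 is 0.10). The difference was above zero without knockout replicate 1 (0.011), knockout replicate 2 (0.15) or wild-type replicate 3 (0.19).

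The genes varied between libraries in different ways. Between its lowest and highest library, CPM differed 1.64-fold for Thbs1, 1.58-fold for Vegfa, 1.74-fold for Hbegf, 1.499-fold for Tgfb1 and 1.33-fold for Cd47, and 2.72-fold for Areg and 6.33-fold for Cd36. The biological coefficient of variation, edgeR's estimate of the spread between libraries of a genotype, was 15.2% for Thbs1, against a median of 11.9% for the 100 most abundant genes. It was 15.4% for Vegfa, 13.9% for Tgfb1, 20.2% for Hbegf and 12.2% for Cd47, against medians of 13.1%, 12.4%, 19.1% and 11.99% for genes within 0.5 log2 CPM of each. Over the 6 libraries the log2 CPM of Thbs1 and Cd47 moved most alike within the set (Pearson r = 0.80, n = 6), and wild-type replicate 3 was the highest library for both. Vegfa and Hbegf (r = 0.64) were both highest in knockout replicate 2, the library that stood apart. Vegfa and Thbs1 had r = 0.09. These correlations are descriptions over 6 libraries that share their scaling.

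**Figure D3:**
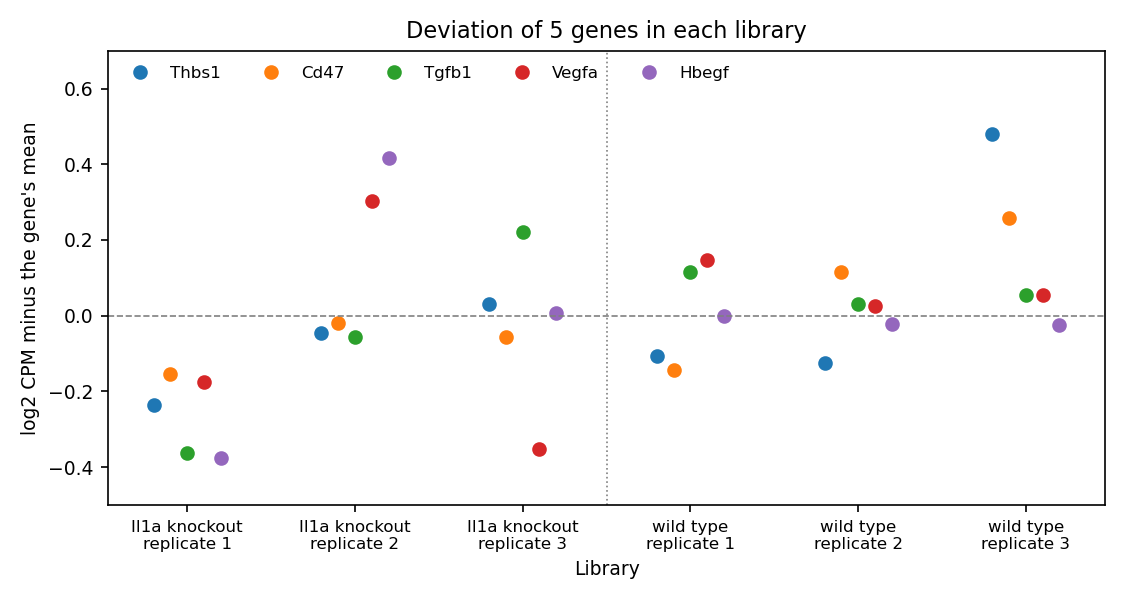
Points give log2 CPM minus the mean of the gene over all 6 libraries for the 5 genes that averaged 5 CPM or more, with the knockout libraries left of the dotted line and the wild-type libraries right of it. Wild-type replicate 3 is the highest library for Thbs1 and Cd47, and knockout replicate 2 is the highest for Vegfa and Hbegf.

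Each of these 5 genes was compared with 1811 genes that averaged 50 CPM or more. The 7 genes and every symbol that starts with Gm, RP or AC or ends in Rik were left out. Those whose log2 CPM followed Thbs1 most closely were Lrrc8d, a gene of the volume-regulated anion channel (Pearson r = 0.98, n = 6), Pafah1b1 (0.97) and Fndc3b (0.97). For Cd47 the closest were Il1rn, the gene of the IL-1 receptor antagonist (r = 0.99), Fbxo28 (0.99) and Nup50, a nuclear pore gene (0.99). For Vegfa they were Zswim6 (r = 0.99), Dusp1, a phosphatase gene that restrains MAP kinases (0.94), and Tfrc, the transferrin receptor gene (0.93). For Hbegf they were the glucose transporter gene Slc2a1 (r = 0.97), Nabp1 (0.96) and Rhoh (0.95), and for Tgfb1 they were Kmt2e (r = 0.96), the transcription factor gene Ets2 (0.93) and Pgs1 (0.92). These genes are the highest of 1811 by r over 6 libraries, and r is given as a description.

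The wider pathway was described through 11 lists that hold 165 distinct genes beside the 7. Of these 121 were tested, and 0 passed edgeR's test, with 15 at an unadjusted p under 0.05 (4 higher and 11 lower in the knockout, beside 5.99% of all tested genes), 0 called by limma-voom and 2 called by DESeq2, of 128 that it tested, beside 0.53% of the 13203 genes it tested in all. Knockout and wild-type libraries did not overlap for 18 of the 121, beside 11.6% of all tested genes. The median log2 fold change of the 121 was -0.03. By list, 19 of 26 other angiogenic factors, 13 of 18 other antiangiogenic factors and 10 of 22 corneal repair factors were tested, with median log2 fold changes of -0.13, 0.03 and 0.10. Among other angiogenic factors the most abundant were Ptgs2, the inducible cyclooxygenase gene, at 4744 ± 1489 CPM in the knockout and 5342 ± 1021 CPM in wild type, Plaur, the urokinase receptor gene, at 3916 ± 414 and 4289 ± 415 CPM, Spp1, the osteopontin gene, at 2657 ± 378 and 3391 ± 574 CPM, and the cytokine gene Osm at 1040 ± 293 and 1157 ± 72 CPM (SD, n = 3 each). On the length-scaled axis Plaur and Spp1, at 3776 ± 265 and 4065 ± 438 TPM in the knockout and 3908 ± 241 and 4898 ± 658 TPM in wild type, were the listed angiogenic genes nearest to Thbs1. The most abundant gene on the list of other antiangiogenic factors was Sema4d, a semaphorin gene, at 724 ± 88 and 748 ± 48 CPM. Its product is described as proangiogenic, so its place on that list is not a statement of its role. The list counts and median above include it. Timp2, a metalloprotease inhibitor gene, was at 172 ± 10 and 168 ± 15 CPM, and the cathepsin gene Ctsl at 93.4 ± 6.0 and 109 ± 7 CPM. On the list of corneal repair factors, Fpr2, a receptor for formyl peptides and annexin, was at 384 ± 46 and 357 ± 11 CPM and its ligand gene Anxa1 at 168 ± 32 and 193 ± 35 CPM.

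The 3 listed genes that DESeq2 or the edgeR fit without a library called are given here by their values, and the choice of them followed from those calls. Mmp14, a membrane metalloprotease gene, had 15.4, 39.8 and 27.1 CPM in the knockout libraries, against 10.5, 12.9 and 12.4 CPM in the wild-type libraries (log2 fold change 1.20, edgeR adjusted p = 0.36), and was called by DESeq2. Fn1, the fibronectin gene, had 8.8, 41.7 and 25.6 CPM in the knockout libraries, against 3.3, 4.6 and 8.1 CPM in the wild-type libraries (log2 fold change 2.25, edgeR adjusted p = 0.48). Both lay higher in every knockout library than in any wild-type library, were highest in knockout replicate 2 and were called without knockout replicate 1 (edgeR adjusted p = 0.031 for each). Timp3, an inhibitor of metalloproteases and of VEGF receptor binding, had 0.47, 0 and 0.26 CPM in the knockout libraries, against 0.75, 4.9 and 1.3 CPM in the wild-type libraries (edgeR adjusted p = 0.60), and was called by DESeq2.

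**Figure D4:**
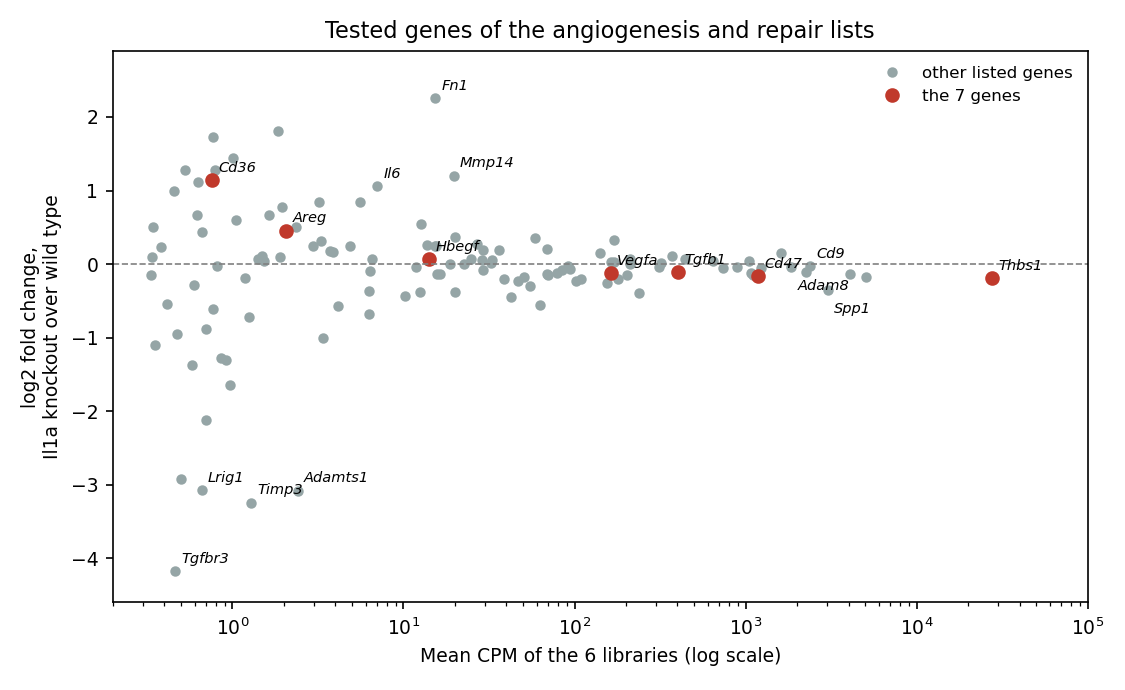
Each point is a tested gene of the angiogenesis and repair lists, with its mean CPM over 6 libraries on a log axis and its log2 fold change, Il1a knockout over wild type. The 7 genes are in red, and log2 fold changes beyond 1 in either direction belong to genes below 5 CPM, apart from Fn1, Mmp14 and Il6.

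Other cells make these factors too, so their markers were summed. The 13 platelet and megakaryocyte markers summed to 20.7, 73.2 and 36.5 CPM in the knockout libraries, against 28.0, 49.5 and 24.5 CPM in the wild-type libraries, and Gp1bb had 0 counts in all 6. The most abundant of them were Ppbp, at 2.80 to 38.7 CPM in the knockout and 3.89 to 31.3 CPM in wild type, and Itgb3, at 7.58 to 17.5 and 11.4 to 13.3 CPM. Of the 7 tested, 5 had a log2 fold change above zero and 2 below, and 0 passed edgeR's test. Pf4, a platelet chemokine gene, had 4.24, 12.1 and 9.96 CPM in the knockout libraries, against 3.03, 2.897 and 1.96 CPM in the wild-type libraries (log2 fold change 1.74, edgeR adjusted p = 0.24). Platelets store thrombospondin 1 as protein, and the part of platelet RNA in Thbs1 was not tested. The 10 endothelial markers summed to 34.9 to 45.0 CPM in the knockout and 40.7 to 46.0 CPM in wild type, most of it Pecam1, which leukocytes share. The other 9 had at most 2.51 CPM in any library, a value of Emcn in wild-type replicate 2. Of the 5 tested, 3 had a log2 fold change above zero and 2 below, with a median of 0.12, and 0 passed edgeR's test. Vwf, picked out for its values, was higher in each knockout library, at 0.57 to 1.63 CPM, than in any wild-type library, at 0 to 0.29 CPM (log2 fold change 2.86, edgeR adjusted p = 0.61). Such a separation held for 11.6% of all tested genes. Emcn had a log2 fold change of -0.75. Prox1 and Flt4, which were not tested, had 0 CPM in every knockout library and at most 1.35 and 0.61 CPM in wild type. The part of endothelial RNA in the values of the 7 genes was not tested. The 10 markers of keratocytes and fibroblasts summed to 12.95 to 44.1 and 19.7 to 37.6 CPM, with Dcn and Col1a1 the most abundant and Thy1 at 0.

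The 10 corneal epithelial markers summed to 28.4, 121 and 35.5 CPM in the knockout libraries, against 21.6, 151 and 101 CPM in the wild-type libraries, with Krt14 and Krt5 leading. Of the 8 tested, 1 had a log2 fold change above zero and 7 below, with a median of -0.57, and 0 passed edgeR's test. Areg, also a transcript of epithelium, was high in the library with most epithelial markers in each genotype, but was as high in knockout replicate 3, where they were low, and low in wild-type replicate 3, where they were high. Tgfa, another EGF receptor ligand that did not pass the filter on low counts and was picked out for its values, had 2.4 CPM in knockout replicate 2 and 2.3 CPM in wild-type replicate 2 and at most 0.13 CPM in the other libraries. The part of epithelial RNA in these values was not tested.

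The 16 markers of monocytes and macrophages summed to 709, 716 and 733 CPM in the knockout libraries, against 592, 639 and 614 CPM in the wild-type libraries, without overlap, with Cd68 and Csf1r leading. Of the 15 tested, 0 passed edgeR's test, beside 0.101% of all tested genes, and 8 had an unadjusted p under 0.05, beside 5.99%. The log2 fold change was above zero for 12 of the 15 and below for 3, and the median was 1.23. The abundant markers differed least, with log2 fold changes of 0.17 for Cd68, 0.21 for Csf1r and 0.22 for Adgre1, and the larger values above zero belonged to genes of lower level such as C1qb (2.28) and F13a1 (1.88). The 3 below zero were Lyve1 (-3.24), Fcgr1 (-0.34) and Ly6c2 (-0.30). Macrophages also express Cd36. The highest Cd36 library, knockout replicate 3, was the highest for the summed markers, whereas knockout replicate 2, with most C1qb, had a Cd36 level close to that of wild-type replicate 3. Fn1, another macrophage transcript, had the same order as C1qb in the knockout libraries and another order in the wild-type libraries. C1qb had 2.11, 8.29 and 4.02 CPM in the knockout libraries and 0.973, 1.26 and 0.740 CPM in the wild-type libraries. The part of macrophage RNA in Cd36 and Fn1 was not tested. The lists for dendritic cells, with Itgax leading, and for mast cells and basophils, with Kit leading, summed to at most 72.6 and 10.3 CPM, and those for lymphoid, B and erythroid cells to at most 4.28 CPM.

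**Figure D5:**
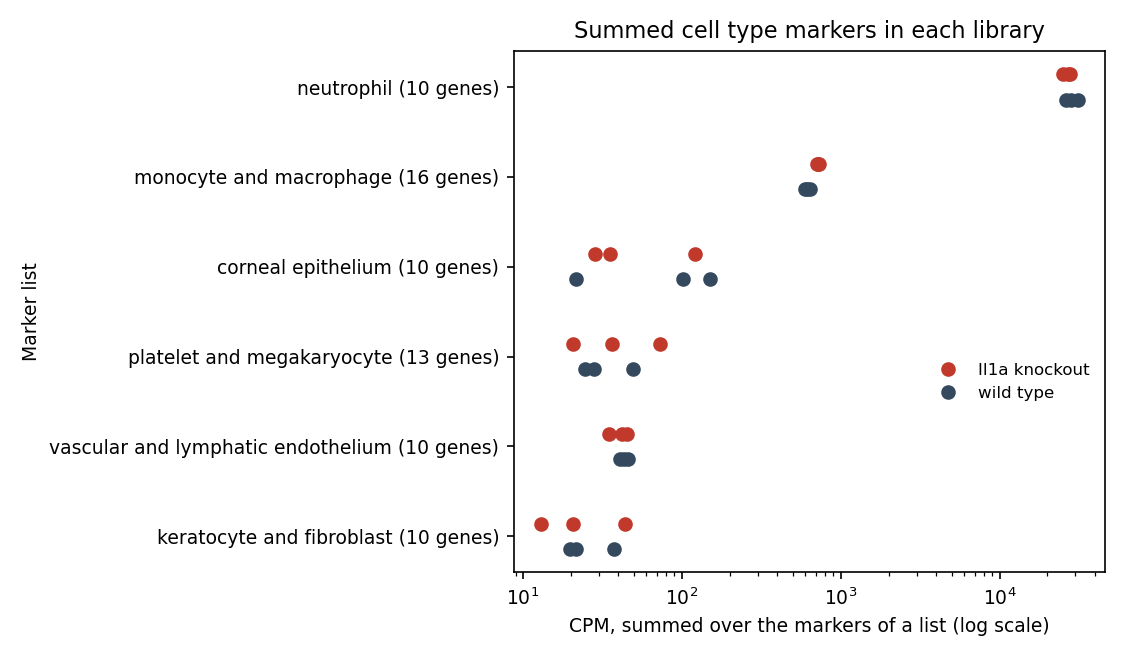
Points give, for each library, the summed CPM of 6 marker lists on a log axis, with Il1a knockout in red above wild type in dark blue. The monocyte and macrophage sums do not overlap between genotypes, at 709 to 733 CPM in the knockout and 592 to 639 CPM in wild type, and those of the other 5 lists overlap.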

How the data were processed

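RNA from sorted corneal neutrophils was purified with a column kit and amplified with a SMART-seq low-input kit, per the labels' protocols. Per the submitters' processing notes, STAR 2.7.8a, Trimmomatic 0.39 and FastQC 0.11.9 were used, and mm10 and GRCm38 are listed as builds. The authors deposited whole-number counts per gene, 1 unstranded column and a pair by read strand. The annotation release is not given in the sources used here. GENCODE M21 gave symbols, positions and lengths for 54809 of 54838 genes. The unstranded column appears, from the values, to omit reads that fall on exons of more than 1 gene.

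The unstranded counts were filtered by edgeR's default rule by group (11924 genes kept), normalized by TMM and tested by the robust quasi-likelihood test of edgeR 4.0.16 (limma 3.58.1, R 4.3.3), knockout over wild type. The model had no replicate term. Benjamini-Hochberg adjustment ran over all tested genes, and the threshold was 0.05. Log2 CPM used a prior count of 3. Alternatives were other scalings, other filters, a replicate block, each library left out, the strand columns, another gene length, limma-voom and DESeq2 1.42.0. The procedure was tested on simulated data, with changes set in genes of 5 CPM or more. It called 20% of the genes changed 1.5-fold, 74% of those changed 2-fold and 100% of those changed 4-fold or 8-fold. It also called 16 unchanged genes. Copies were searched with blastn 2.17.0 and figures were drawn with matplotlib 3.10.9. The libraries held 22855676 to 33626008 counts, so counting error matters mainly for Areg and Cd36. Reads carry no molecular tags. The labels name no animals, so p-values measure the spread between these libraries.

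The 7 genes and the 11 pathway and 11 marker lists were chosen with earlier results of these data known. Named are the 7 genes, any called gene of a pathway list (there was none) and up to 4 tested members of highest mean CPM per list, the 3 genes most like each of the 7 that averaged 5 CPM or more (taken from genes of 50 CPM or more), the 2 most abundant genes per marker list, and Il1a. Genes outside that rule were chosen after their values were seen, which holds for Adam17, Adam10, Adam9, Rhbdf1, Nrros, Itgb1, Itgb6, Itgb8, Mmp14, Fn1, Timp3, Tgfa, Il6, the other labelled points of the plot of listed genes, the neighbours Ehd4 and Gm29233, Fth1 and Cd14, and the marker genes beyond the leading pair of each list. All 182 list entries and 102 marker entries matched a gene.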

Additional observations from a re-analysis of the deposited data

How the results depend on the processing

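None of the 7 genes was called in any of the 103 values from alternative settings (lowest adjusted p = 0.60, Cd36, edgeR without knockout replicate 1). At 5 CPM in 3 libraries Areg and Cd36 were not tested. With 1 library left out the log2 fold change ranged from -0.30 to 0.035 for Thbs1, -0.35 to 0.0053 for Vegfa, -0.17 to 0.24 for Hbegf, -0.27 to 0.015 for Tgfb1, -0.28 to -0.07 for Cd47, 0.21 to 1.02 for Areg and 0.48 to 1.64 for Cd36. The mean difference in the log2 ratio of Thbs1 to Vegfa ranged from -0.21 to 0.19. The count of changed genes was 12, and 7 to 24 with 1 library left out, 7 without wild-type replicate 1 or 2 and 24 without knockout replicate 1. It was 185 without a filter, 21 with a filter at 5 CPM, 70 by DESeq2 and 20 with the replicate number as a block. Other pathway genes called numbered 9 without a filter, 2 by DESeq2 and 0 to 2 with 1 library left out. The cause of these differences was not tested.

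The labels do not say whether the replicate numbers pair the samples, and a check on 6 libraries cannot exclude a pairing or a shared batch. The correlation of deviations between libraries of the same number was 0.14, 0.057 and 0.0034, against -0.19 to 0.14 between libraries of different number. Of the 6 libraries, 3 correlated best with their own number. The replicate block changed the call of none of the 7 genes. With the longest transcript as gene length, Hbegf had 9.97 TPM and Tgfb1 317 TPM, and by the strand columns Cd47 had 414 TPM, against 7.19, 195 and 463 TPM, and the order of the 7 genes by mean TPM was the same under these settings. Depth limits Areg and Cd36, which rest on 9 to 96 counts per library.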

Other observations

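Thbs4 was counted at 0.0374% to 0.0493% of the Thbs1 count in the knockout libraries and 0.0470% to 0.0496% in the wild-type libraries, and wild-type replicate 3 was the highest library for both. The transcripts of Thbs1 and Thbs4 gave no match to each other in the search for copies.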
